A study of Bos taurus with 18 samples.

Results

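Long domains of low methylation were examined in sperm of 18 adult Holstein bulls by whole-genome bisulfite sequencing, an assay in which unmethylated cytosines are converted and methylated ones are read as cytosine, so that the percent of such reads gives the methylation of a CpG position. The autosomes were cut into tiles of 2000 bp, and the value of a bull in a tile was the mean percent over the positions it lists there. The domains were chosen by these measured values, as runs of 3 or more adjacent tiles that were each listed in at least 9 bulls and each had a mean over bulls of 20% or less. This rule gave 1203 domains with 7313 tiles (14626 kb), out of 1176978 eligible tiles (0.621%). The low level of the domains is therefore given by their choice and is described without a test. Since their mean was 11.5% ± 1.14 (SD, n = 18 bulls) and not 0, they are called low-methylation domains here. All positions refer to the UMD 3.1 cattle genome. No gene annotation of that build was used, and the sequences of the domains were not analysed here.

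The bulls are sires of one breed, each represented by 1 library from semen. For gestation length, calving ease, body depth and cow conception rate the study grouped them by predicted transmitting ability, the merit that a bull passes on to its progeny. The high and low groups held 4 bulls each for gestation length (GL: high H03, H09, L03, L05, low H02, H05, L01, L07). They held 3 bulls each for sire calving ease (SCE: high H03, H07, L02, low H01, H06, L09), body depth (BDE: high H02, L03, L08, low H05, H09, L02) and cow conception rate (CCR: high H08, H09, L06, low H06, L08, L09). The groups for sire conception rate (SCR) are known from the labels only, as H01, H02 and H03 (high) against L01, L02 and L03 (low). The study's methods do not say by which measure these SCR groups were formed. Bulls are shared between traits, H04 and L04 belong to no group, and no allele or treatment is given for any bull. The bulls listed from 2751759 (H01) to 21784160 (H08) autosomal positions covered by at least 10 reads. Read coverage is listed only for the 6 SCR bulls and is unknown for the other 12. The identity of the cells as sperm was not checked against marker genes.

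Most CpG positions of mammalian sperm are highly methylated, and the exceptions include CpG-rich stretches at gene starts and some families of tandem repeats. In cattle, such repeats form satellite DNA, which lies around the centromeres. Several bovine satellites are built from units related to a sequence of 31 bp, and satellite DNA is known to be less methylated in sperm than in somatic tissues. Bovine autosomes carry the centromere at 1 end, where the numbering of the assembled sequence starts.

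The domains were divided into kinds by read depth and by the number of listed positions. In the 6 bulls with listed coverage, 316 domains with 2800 tiles had a mean of at least 20 reads per position, 870 domains had fewer than 16, and only 17 lay between. The 316 domains, called deep here, had a median coverage of 33.0 reads. The shallower 870 domains were divided at 60 positions listed in any bull per tile. This gave 335 dense domains (1684 tiles, a median of 96.5 positions per tile) and 535 sparse domains (2651 tiles, 22.4 positions per tile). The deep domains had a median of 132 positions per tile. A position is listed only with at least 10 reads, so this number reflects depth as well as CpG content, which was not measured. The highest listed coverage was 100 reads in each of the 6 bulls. Whether positions with more reads are missing, which would touch the deep domains most, was not tested. The limits of 20 and 16 reads and 60 positions were set after seeing the data, so the kinds are described without tests between them.

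**Figure D1:**
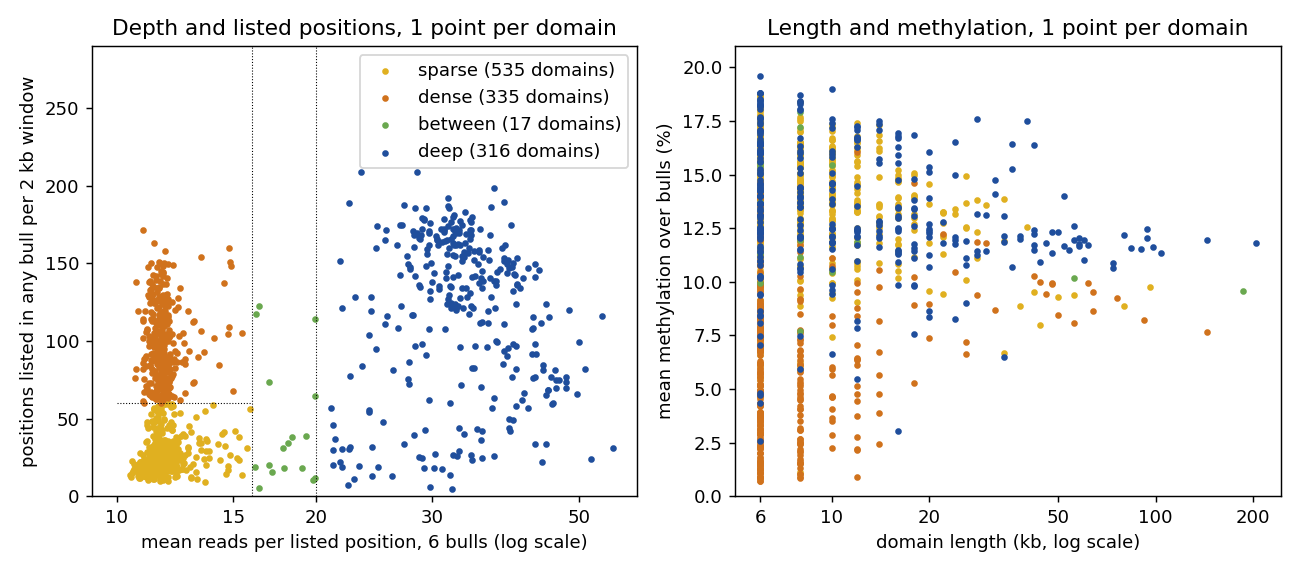
Each point is 1 of the 1203 domains. The left panel plots the mean reads per listed position in the 6 bulls with coverage (log scale) against the positions listed in any bull per 2 kb tile (window), with dotted lines at 16 and 20 reads and at 60 positions, and the right panel plots domain length in kb (log scale) against methylation averaged over bulls in percent. At 5% or less lie 140 dense, 7 sparse and 5 deep domains, and the 6 longest deep domains lie between 11.4% and 12.5%.

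The dense domains were the least methylated. Their median level was 5.97% (quartiles 3.32% and 8.72%), and 140 of 335 (41.8%) were at 5% or less. The 27 dense domains in the first Mb of the autosomes had a higher median of 9.55%, and 0 of them were at 5% or less. The deep domains had a median of 12.9%, and 5 of 316 (1.58%) were at 5% or less. The sparse domains had a median of 14.0%, and 7 of 535 (1.31%) were at 5% or less. The mean over dense tiles ranged from 5.18% (L05) to 9.29% (H06) between bulls, over deep tiles from 10.7% (L06) to 15.3% (H06) and over sparse tiles from 10.4% (L06) to 16.004% (H06). The dense domains lay below both other kinds in 18 of 18 bulls, whereas deep and sparse domains changed places, with sparse above deep in 11 of 18 bulls.

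The share of positions without a methylated read depends on both the level and the reads per position. In dense domains a median of 62.1% of the listed positions of a bull were at 0% (55.7% to 68.1%), in sparse domains 32.6% (24.7% to 37.8%) and in deep domains 17.6% (13.6% to 23.7%). A position with more reads reaches exactly 0% less often at the same level, so the value of the deep domains cannot be compared directly with the others. In H01, for example, the median position of the deep domains had 22 reads and that of the shallower ones 11. Positions above 50% were rare in both, with a median over bulls of 1.70% in deep and 1.52% in the shallower domains. Isolated low tiles, which met the same limit of 20% but had no low neighbour, had a median of 58.3% of positions at 0% and 3.99% above 50%.

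**Figure D2:**
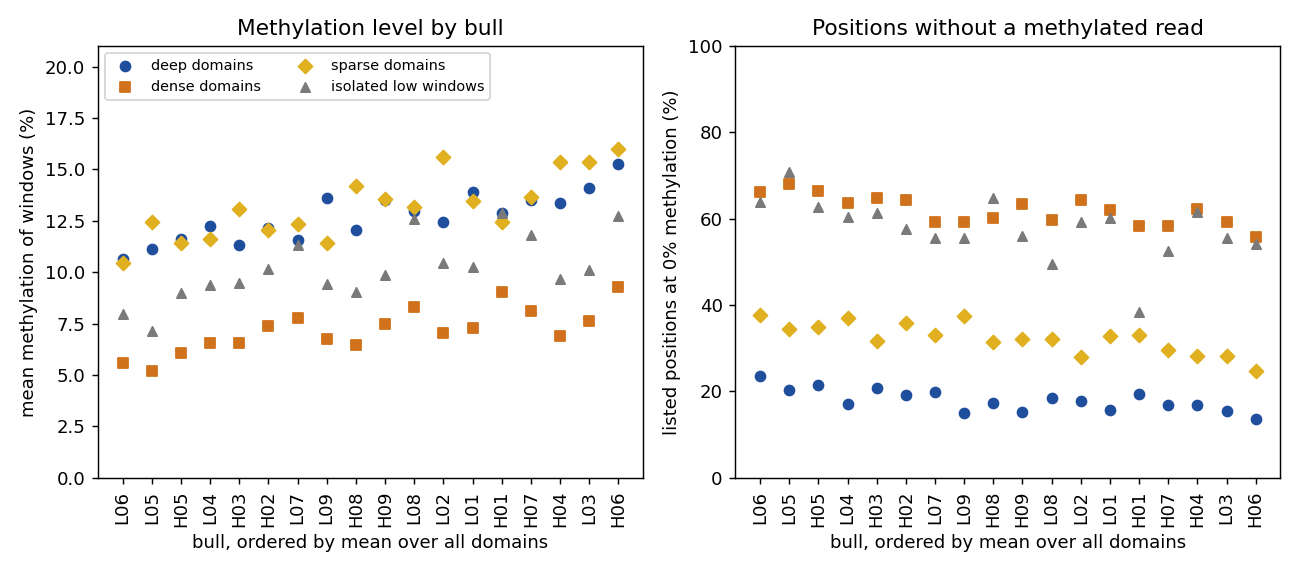
The bulls are ordered by their mean over all domains, from L06 to H06. The left panel plots the mean methylation of the tiles (windows) in percent and the right panel the share of listed positions at 0%, in deep, dense and sparse domains and isolated low tiles. In every bull the dense domains are lowest of the 3 kinds in the left panel and highest of the 3 in the right panel.

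The kinds differed in where they lay. The first Mb of the autosomes held 262 domains on 25 autosomes and 2010 domain tiles, or 27.5% of all domain tiles against 1.12% of eligible tiles. There 15.3% of the eligible tiles were domain tiles, compared with 2.02% in the second Mb and 0.426% beyond 10 Mb. Of the 262 domains, 201 were sparse, 27 dense, 27 deep and 7 of intermediate coverage. Thus 37.6% of the sparse domains lay in the first Mb, compared with 8.06% of the dense and 8.54% of the deep ones. Counted in tiles, dense and deep domains were less alike. The first Mb held 1214 of 2651 sparse, 456 of 1684 dense and 198 of 2800 deep tiles. All 3 kinds occurred on 29 autosomes. Relative to their eligible tiles, BTA21 and BTA18 had the highest rates, with 14.2 and 13.3 domain tiles per 1000, and BTA20 the lowest, with 1.41. In number, BTA7 held the most domain tiles (516), followed by BTA21 (489) and BTA18 (424). The most crowded Mb was the first of BTA19 with 174 domain tiles, followed by those of BTA23 (159) and BTA15 (146). Beyond the first Mb, BTA27 from 28 to 29 Mb held 116 domain tiles, all of them deep, and BTA3 from 82 to 83 Mb held 109, of which 102 were deep.

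The surroundings differed with the kind and with the place on the chromosome. Among tiles listed in at least 9 bulls, the tile next to a dense domain had a median of 64.9%, and the next one out 90.5%. Around deep domains these medians were 43.4% and 73.8%, rising to 84.6% at 20 kb. Around sparse domains they were 26.7% and 27.5%, and 33.7% at 20 kb, so that many of these domains lay within wider stretches of reduced methylation. The same held for the 27 dense domains of the first Mb, where the tile 6 kb out had a median of 17.1%, compared with 21.1% for the sparse domains of the first Mb and 90.1% over all dense domains. Over all 2079 listed tiles at domain edges, 21.9% were at 80% or more and 56.9% between 20% and 40%. The values of the adjacent tile are partly set by the rule, since such a tile had to exceed 20%. The limit was close in some cases. The domains chr24:4394001-4404000, chr8:74722001-74734000 and chr3:18664001-18670000 each had a highest tile just inside, at 19.9973%, 19.9915% and 19.9885%. The runs chr8:74694001-74700000, chr23:1474001-1480000 and chr19:1682001-1688000 missed it with highest tiles of 20.0009%, 20.0113% and 20.0182%.

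**Figure D3:**
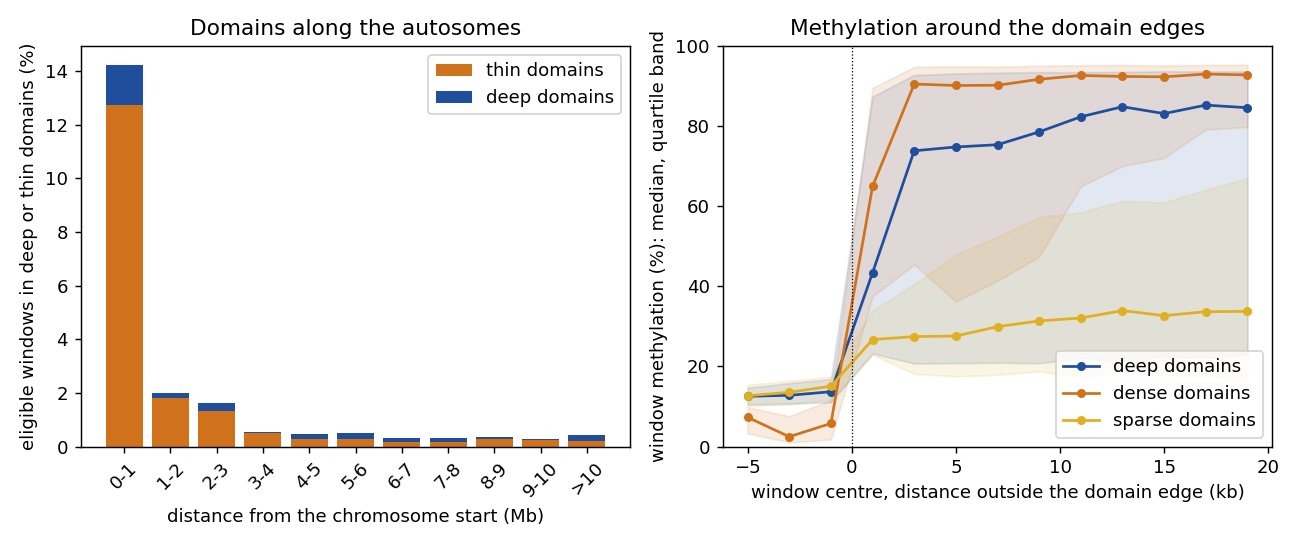
The left panel plots the percent of eligible 2 kb tiles (windows) in thin domains (dense and sparse together, under 16 reads) and deep domains by distance from the chromosome start in Mb, and the right panel the median methylation of tiles in percent, with a band from the lower to the upper quartile, by distance of the tile centre in kb outside the domain edge. In the first Mb 12.7% of the tiles lie in thin and 1.51% in deep domains, and the median in the second tile out is 90.5% beside all dense and 27.5% beside all sparse domains, which does not hold for dense domains of the first Mb (17.1% in the tile 6 kb out).

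The domains also differed in the spacing of their CpG sites. With both strands of a CpG counted as 1 site, 13.4% of the sites of deep domains had another listed site exactly 31 bp further on, compared with a mean of 5.23% at neighbouring spacings (25 to 37 bp without 30 to 32), a ratio of 2.56. In thin (dense and sparse) domains of the first Mb the value was 6.89%, with 2.13% at the neighbouring spacings, a ratio of 3.23. In thin domains elsewhere the ratio was 1.13, and in isolated low tiles it was 1.01 (5.39% and 5.32%). The spacing is that of listed positions on the reference and carries no methylation value. A regular spacing is what a tandem repeat gives, and whether these domains are satellite DNA was not tested.

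**Figure D4:**
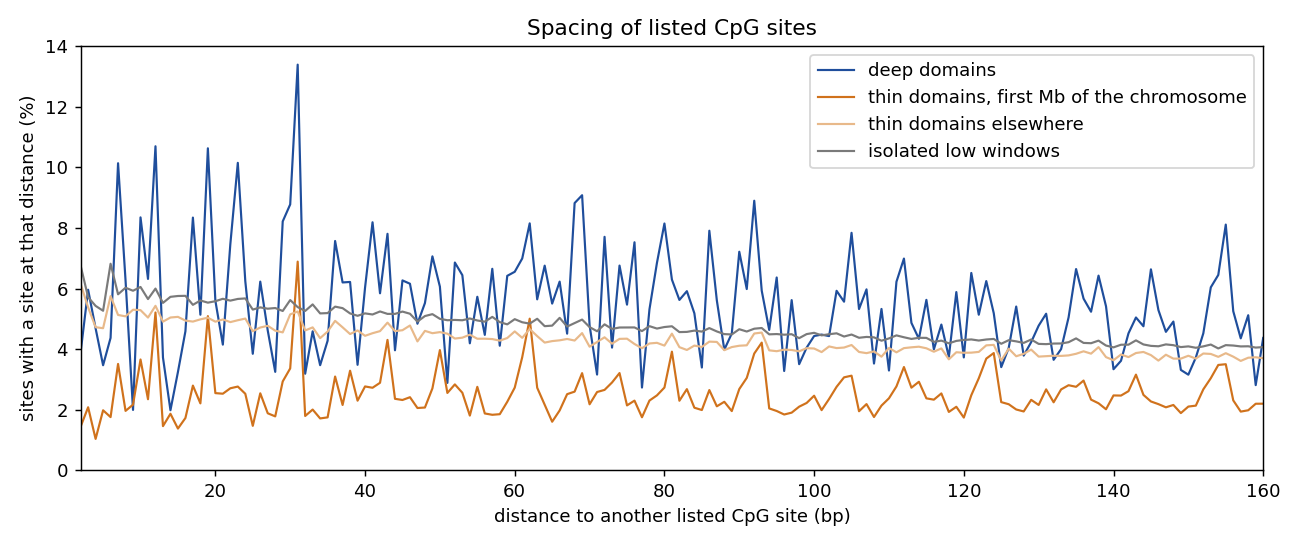
The lines give the percent of listed CpG sites that have another listed site at the distance on the horizontal axis, in bp. Deep domains peak at 31 bp with 13.4%, thin domains of the first Mb peak there at a lower height, and isolated low tiles (windows) show no peak.

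Deep domains with different spacings had different median levels, with overlapping ranges. At a limit of 10% of sites, set after seeing the data, 154 deep domains (1871 tiles, on 29 autosomes) had the 31 bp spacing and 80 (470 tiles, on 16 autosomes) a spacing of 46 bp, while 82 had neither. Most of them lay away from the chromosome start, with 5 of the 154 and 8 of the 80 in the first Mb. The 31 bp domains had a median of 12.1% (quartiles 11.5% and 13.1%), and 7 of 154 exceeded 15%, in a range from 4.37% to 16.4%. The 46 bp domains had a median of 16.8% (16.1% and 17.6%), and 72 of 80 exceeded 15%, in a range from 2.57% to 19.6%. The tiles of 46 bp domains averaged 16.1% ± 1.42 (SD, n = 18) per bull and those of 31 bp domains 11.96% ± 1.24, with the former higher in 18 of 18 bulls. Thin domains did not show this gap. The tiles of the 9 thin domains with 46 bp spacing averaged 8.54% ± 1.13 per bull and those of the 35 with 31 bp 8.98% ± 1.04. Their median domain levels were 10.2% and 9.38%, and 1 of the 9 and 18 of the 35 lay in the first Mb. All 20 deep domains of BTA27 from 28 to 29 Mb had the 46 bp spacing, with levels from 15.9% to 19.6%, as did all 12 from 74 to 75 Mb of BTA8, with levels from 16.1% to 18.8%. Median coverage was 32.03 reads in 31 bp and 38.2 reads in 46 bp domains. The deposited data do not show to how many copies of a repeat a read could be mapped, so domains with the same spacing may share reads and are not independent.

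The 10 longest domains measured 92 to 204 kb. The longest was chr3:82708001-82912000 on BTA3, a deep domain in which 15.4% of the sites had a site 31 bp further on. Its level was 9.82% in L06, 11.8% at the median and 14.3% in H06. The other deep ones were chr8:56712001-56856000, chr8:110660001-110764000, chr25:30274001-30372000, chr6:17922001-18016000 and chr27:37558001-37652000. Their means over bulls lay between 11.4% and 12.5%. In each of these 6 domains L06 was the lowest and H06 the highest bull, and the SD between bulls was 1.27 to 1.35 percentage points. Among all 75 deep domains of at least 20 kb, H06 was highest in 61 and L06 lowest in 35. Over the 18 bulls, which share their library across domains, the median Pearson r between pairs of these domains was 0.824. Among the 57 thin domains of this length it was 0.344, and H06 was highest in 12 and L06 lowest in 19. Tiles of all deep domains held a mean of 86.4 listed positions per bull and those of all thin domains 13.3. The position of L06 was not particular to domains, since L06 was also lowest in tiles outside low regions (83.5%, median of the bulls 86.9%). The highest bull in those tiles was L03 at 88.5%, and H06 was at 88.2%.

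The other 4 long domains were less methylated. The domain chr16:8001-194000 (186 kb, intermediate coverage of 16.2 reads) lay at the start of BTA16 and ranged from 7.48% in H03 to 12.2% in L01, with a median of 9.57%. The dense domain chr21:60574001-60718000 (144 kb) was the longest thin one and ranged from 5.41% in L06 to 10.5% in H09, with a median of 7.77%. It lies far from the start of BTA21 and 10.5% of its sites had a site 31 bp further on. The dense domain chr29:346001-438000 (92 kb) ranged from 5.56% in L09 to 11.5% in H09, and the sparse domain chr19:334001-430000 (96 kb) from 7.36% in L06 to 11.6% in H06. In chr29:346001-438000 the bulls listed between 70 (H09) and 1509 (H08) positions, so that the highest bull there was also the one with the fewest positions. The same was true of chr21:60574001-60718000, where H09 listed 121 positions and H08 3625.

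At the other end, short dense domains approached 0%. Examples chosen after their values were seen are chr8:65332001-65338000, chr24:2812001-2818000 and chr6:71370001-71378000. Their means over bulls were 0.838%, 0.852% and 0.869%. The highest bull reached 3.03%, 2.87% and 2.16%, so the 18 bulls lay within about 3 points of each other. These domains had 119, 71.7 and 135 positions per tile and 11.6 to 11.8 reads per position in the 6 bulls with coverage.

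The 5 domains with the largest SD between bulls, of those with a value in all 18, were short thin domains in which 1 or 2 bulls stood far above the others, mostly on few positions. In chr18:19652001-19658000 (SD 22.5 points) H01 was at 100% and listed 1 position, while H08 listed 187. In chr3:85166001-85172000 (SD 15.7) H01 was at 72.7% with 1 position. In chr6:18332001-18338000 (SD 14.2) H01 was at 63.6% with 2 positions. In chr17:29122001-29128000 (SD 12.6) H08 was at 57.1% with 4 positions. In chr10:84784001-84790000 (SD 17.8) H01 was at 66.9% with 3 positions, but L03 was at 51.2% with 30. Between bulls, the median SD over domains was 1.70 points for deep, 3.11 for dense and 4.87 for sparse domains. The number of positions behind a value moved with this order.

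The domains were also measured in bulls that had not been used to choose them. When the same rule was applied to H01 to H09 only, with tiles listed in at least 5 of them, 1163 domains were found with a mean of 11.5% ± 1.13 (SD, n = 9). In L01 to L09 these domains had a mean of 11.3% ± 1.17 (SD, n = 9), and 1147 of 1163 (98.6%) had a mean of 20% or less. Of the 6769 tiles listed in at least 5 of these bulls, 95.4% were at 20% or less. In the other direction 1228 domains chosen in L01 to L09 had 11.3% ± 1.09 there and 12.2% ± 1.202 in H01 to H09, where 1167 (95.03%) had a mean of 20% or less, as did 91.9% of 7157 tiles. Across the genome the median tile was at 92.1%.

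Listing density differed between the kinds. Since the rule required adjacent tiles that were each listed in at least 9 bulls, it is described without a test. The bulls listed 44.4 ± 5.59 (SD, n = 18) positions per listed tile in domains and 17.98 ± 7.76 in isolated low tiles. The difference of 26.4 ± 5.16 positions was positive in 18 of 18 bulls. Deep domains had 86.4 ± 8.12 positions per tile, above the isolated tiles in 18 of 18 bulls. Thin domains, dense and sparse together, had 13.3 ± 6.49, below the isolated tiles in 18 of 18. These values per bull were not divided into dense and sparse. Counted over positions listed in any bull, dense domains had a median of 96.5 per tile and sparse domains 22.4, while isolated low tiles had a mean of 73.2. In all, 58182 of the 114810 positions listed in all 18 bulls (50.7%) lay in domains, compared with 1.59% of the 39985997 positions listed in any bull. In H01, the bull with the fewest positions, 7.26% of its positions lay in domains, and in L06 1.75%.

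The question in the trait comparisons was whether high and low bulls differed in the domains. The mean over domain tiles did not pass the exact permutation test for any of the 5 traits, although for CCR and SCR the difference was larger than the SD of either group. For GL it was 11.4% ± 1.21 (SD, n = 4) in high and 11.1% ± 0.782 (SD, n = 4) in low bulls (exact permutation test, two-sided, p = 0.743). For CCR the high bulls had 10.9% ± 1.35 and the low bulls 12.4% ± 1.51 (SD, n = 3 each, difference -1.58 points, exact permutation p = 0.4), and for SCR 11.3% ± 0.744 and 12.4% ± 0.420 (SD, n = 3 each, difference -1.08 points, exact permutation p = 0.3). At a limit of 10% per tile the difference was -0.226 points for SCR, -1.01 for CCR and -0.247 for GL. With tiles listed in all 18 bulls it was 0.185 for GL and -1.47 for SCE. The differences over all domains were -0.747 points for SCE (exact permutation p = 0.5) and 0.484 points for BDE (exact permutation p = 0.6). Adjusted over the 5 traits by Benjamini-Hochberg, the permutation p was 0.743 for each. With 3 bulls against 3 the exact test cannot go below p = 0.1, and with 4 against 4 not below 0.0286. The ranges of high and low bulls overlapped for all 5 traits. For SCR the overlap was narrow and came from H01, at 12.1508%, while the lowest low bull, L02, was at 12.1348%. The SCR difference was -1.32 points with runs of at least 5 tiles and -1.51 points without H01, both with an exact permutation p of 0.1. Adjusted over the 5 traits, the first of these was 0.5. These were the lowest values, and over all settings the exact permutation p for SCR ran from 0.1 to 0.7, the latter at 10% per tile. H05, H06 and L03 each decided a direction, since GL became -0.114 points without L03, SCE 0.0706 without H06 and BDE -0.112 without H05. CCR kept its direction with any bull left out, but was -0.732 points without H06 and -0.822 without L06.

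**Figure D5:**
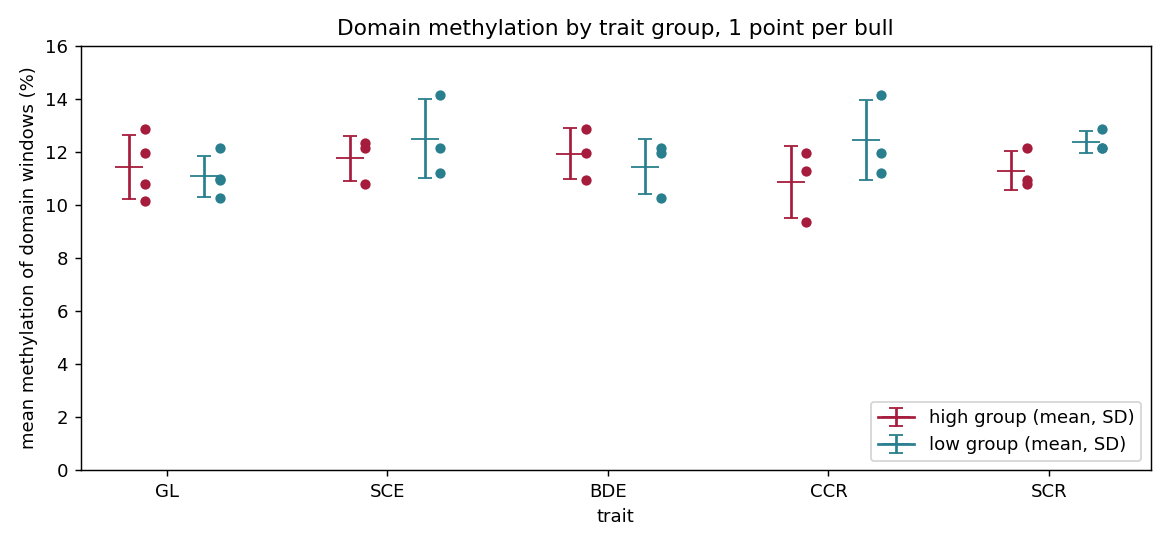
Each point is 1 bull and gives the mean methylation of its domain tiles (windows) in percent, with the mean and SD of the high and low groups of each trait (n = 4 per group for GL and 3 for the others). The groups overlap for each of the 5 traits, for SCR narrowly and through H01 only.

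The differences by kind are given as values, since they were not tested against each other. The high minus low difference for SCE was -1.49 points in deep, -1.12 in dense and 0.803 in sparse domains, and for SCR -1.37 in deep, -2.28 in sparse and 0.341 in dense domains. For GL it was 0.186 in deep, -0.403 in dense and 1.28 in sparse domains, and for BDE 0.548, 0.885 and 0.00110. For CCR all 3 were negative, at -1.87, -1.60 and -0.794. Tiles outside low regions differed by 0.863 points for GL, -0.0372 for SCE, 0.876 for BDE, -1.37 for CCR and -0.547 for SCR. Within bulls of the same file layout (coverage listed or not), the domain difference was 0.283 and 0.438 points for GL, -0.688 and -0.332 for SCE and -0.229 and 0.875 for BDE, with as few as 1 bull on a side for the last 2 traits. The CCR bulls all lack coverage and the SCR bulls all have it.

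Tiles were called as differentially methylated regions (DMRs) between high and low bulls. A logistic regression on methylated and unmethylated reads, listed for SCR and taken as 10 per position for the other 4 traits, whose bulls do not all have coverage, was fitted to every autosomal tile with a position in each bull of the comparison, with q under 0.01 and a difference over 5 points as the call. For GL, 109 of 4835 domain tiles (2.25%) were called, against 8.74% of all 588215 tested tiles. For SCE it was 85 of 4337 (1.96%) against 6.18%, for BDE 120 of 4525 (2.65%) against 7.58%, for CCR 206 of 4600 (4.48%) against 11.0%, and for SCR 121 of 4331 (2.79%) against 8.64%. The median absolute difference was 0.855 points in domain tiles and 1.94 in all tested tiles for GL, and 2.00 and 2.34 for CCR.

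Of the 3 kinds, dense tiles had the largest share called in each of the 5 traits. For GL, 66 of 1119 dense tiles (5.90%), 17 of 864 sparse tiles (1.97%) and 25 of 2711 deep tiles (0.922%) were called. For CCR it was 104 of 1000 dense (10.4%), 39 of 794 sparse (4.91%) and 61 of 2685 deep tiles (2.27%). The other 3 traits had 6.84% to 8.24% of dense, 1.01% to 2.94% of sparse and 1.01% to 1.23% of deep tiles called. The dense share was 5.90% against 8.74% of all tested tiles for GL, 6.84% against 6.18% for SCE, 7.29% against 7.58% for BDE, 10.4% against 11.0% for CCR and 8.24% against 8.64% for SCR, so it lay near the background for the last 4 traits. At least 1 called tile lay in 101 domains for GL and 165 for CCR, where 8.74% and 11.0% of all tested tiles were called. All tiles were called in 0 domains for GL, SCE, BDE and SCR and 1 for CCR. Runs of tiles outside domains were not counted in this way, so no conclusion is drawn from these counts of domains.

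The calls followed no common direction. In high-CCR bulls 179 called domain tiles were lower (8.48% of all tested tiles were) and 27 higher (2.56% of all). In high-BDE bulls 90 were higher (4.71% of all) and 30 lower (2.87% of all). For GL, 37 were higher (4.98% of all) and 72 lower (3.76% of all), with 18 higher and 7 lower in deep and 19 higher and 64 lower in thin domains. The counts were for SCE 13 higher (2.63% of all) and 72 lower (3.54% of all), and for SCR 47 higher (4.13% of all) and 74 lower (4.51% of all). The logistic model treats each read as independent and leaves out the variation between bulls, and the traits share bulls.

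With tests that estimate this spread, no domain tile was called. The F test with overdispersion called 0 domain tiles and 0% of all tested tiles for each trait, and so did limma (Benjamini-Hochberg adjusted), with 0 and 0%. At an unadjusted p under 0.05, the F test had 106 of 4835 domain tiles for GL (2.19%, against 4.67% of all tested tiles), 205 of 4337 for SCE (4.73%, against 2.67%), 75 of 4525 for BDE (1.66%, against 3.07%), 209 of 4600 for CCR (4.54%, against 3.29%) and 340 of 4331 for SCR (7.85%, against 3.14%). Limma had 84 for GL (1.74%, against 4.90%), 45 for SCE (1.04%, against 3.81%), 86 for BDE (1.90%, against 4.41%), 83 for CCR (1.80%, against 4.11%) and 38 for SCR (0.877%, against 4.02%). The tests differed in which traits exceeded their background, so the unadjusted counts name no trait.

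The called domain tiles were also recomputed on fewer positions. In a comparison added after seeing the data, only positions that both the high and the low group list were used. A difference over 5 points with unchanged sign was then left in 21 of 109 called tiles for GL, 27 of 85 for SCE, 42 of 120 for BDE, 100 of 206 for CCR and 49 of 121 for SCR. Taken in the direction of the call, the median difference for GL was 7.43 points over all positions and 1.06 at these shared ones, and for CCR 7.87 and 4.96. These tiles were taken for their difference over all positions, and neither uncalled tiles nor called tiles outside domains were recomputed, so the loss is not a comparison with other tiles.

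The single domains with the largest trait differences were short thin domains with few positions in some bulls. For BDE the largest positive difference was in chr13:37126001-37134000, where high bulls had 27.4% and low bulls were lower by 21.7 points. The same domain gave the largest negative difference for CCR, at -17.9 points, and L08, high for BDE and low for CCR, listed 1 position in it. For SCR the largest positive difference (30.9 points) and for SCE the largest negative difference (-35.9 points) fell in chr18:19652001-19658000, where H01 is at 100% with 1 position. For GL the largest positive difference was 17.1 points in chr15:2578001-2588000, where H02 and H09 listed 1 position each, and the largest negative difference -15.0 points in chr1:32392001-32398000. The remaining extremes were 15.2 points for SCE in chr9:570001-576000, -14.4 points for BDE in chr15:284001-292000, 19.7 points for CCR in chr17:29122001-29128000 and -16.4 points for SCR in chr23:52366001-52372000. These domains were named for their differences, which are given without a test.

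The level of the domains was also set against the features of the files. The 6 bulls with coverage had 11.8% ± 0.802 (SD, n = 6) and the 12 without 11.4% ± 1.28 (SD, n = 12), a difference of 0.444 points (exact permutation test, two-sided, p = 0.453). Over the 18 bulls, domain methylation and the number of listed positions had a Pearson r of -0.419 (permutation p = 0.0821, two-sided) and a Spearman rho of -0.420 (permutation p = 0.0842), which did not pass 0.05. Without H08 and L06, the bulls farthest from the median number, r was -0.305 (permutation p = 0.251). Within the 6 bulls with coverage r was -0.401 and within the other 12 it was -0.383. For 4 such relations, over all, deep and thin domains and positions listed in all 18 bulls, the adjusted permutation p lay between 0.114 and 0.243 for r and between 0.112 and 0.230 for rho.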

How the data were processed

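Per the labels and the study's methods, the authors trimmed reads with Trim Galore 0.4.0, checked them with FastQC 0.11.2, mapped them to UMD 3.1 with Bowtie2 and extracted methylation with Bismark 0.14.5. The deposited values are the percent of methylated reads at positions covered by at least 10 reads, with strands listed separately, and for 6 bulls also the count of reads per position (coverage). Depth is unknown for 12 bulls, so intervals based on it are not given. The design had assumed read counts, so each position counted as 10 reads, except for SCR, where the listed counts were used.

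The members and lists were chosen with earlier results of these data known. Values of a domain are means over its tiles. The logistic regression across all tiles used a likelihood ratio test and a simplified SLIM q (10 segments of the p distribution between 0.1 and 1). The F test set an overdispersion under 1 to 1. Limma 3.58.1 (R 4.3.3) was fitted to log2 ratios of the 2 kinds of reads (1 read added to both), which were derived from the percent values the authors deposited. The study describes the bulls as 18 animals. The highest share of exactly equal values between 2 bulls was 10.6% at the 58182 domain positions listed in all 18. This could reveal the same library listed for 2 bulls, but not whether libraries come from different animals. Tests were checked on simulated data. For the tile tests 200 tiles of the GL groups were changed by 30 points, with reads drawn without spread between bulls. That check cannot show how these tests behave with such spread, with 3 bulls per group or at small differences. A sign-flip test planned for listed positions per tile was run but is not given, since the rule for domains also used listing. Python 3.11.15, NumPy 2.4.6, SciPy 1.17.1 and matplotlib 3.10.9 were used.

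Domains named in the text are the 10 longest, the 5 with the largest SD among those with a value in all 18 bulls, the largest positive and negative difference per trait among those with a value in every bull of the comparison, and the 3 members and 3 runs nearest to the limit. Others are named as chosen after their values were seen. The lists of developmental, housekeeping, germline and imprinted genes and the sperm marker genes were not analysed here, since no annotation of UMD 3.1 was used. The only genes set against the domains were the candidates for gestation length from the study's association mapping. Their places were read from its supplement and taken to be in UMD 3.1, which that table does not state, and none had a domain inside it or within 10000 bp. Alternatives were other limits and lengths for domains, tiles shifted by 1000 bp, shared positions, 13 reads per position (10 for SCR), other thresholds and tests, and each bull left out.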

Additional observations from a re-analysis of the deposited data

Results flagged for a closer look

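The 15 domains named for length or spread and the means over all, deep and thin domains were examined for single bulls far from the rest in the high-GL, low-GL and 6 coverage bulls. Of 54 groups 6 had such a bull, by a gap to its nearest neighbour above Dixon's critical value, and chance flags about 1 in 20.

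Among the 10 longest domains, H05 stood apart only in chr19:334001-430000, at 9.42% where the other low-GL bulls lay between 11.1% and 11.4%. The other 5 were in domains chosen for a large SD. H01 was at 100% in chr18:19652001-19658000 (others of the 6 bulls 3.90% to 15.1%), at 72.7% in chr3:85166001-85172000 (4.97% to 16.1%) and at 63.6% in chr6:18332001-18338000 (2.14% to 15.4%), on 1, 1 and 2 positions. L03 was at 51.2% in chr10:84784001-84790000, where the other high-GL bulls had 2.89% to 9.94%, and H02 at 16.1% in chr17:29122001-29128000, where the other coverage bulls had 3.33% to 7.63%.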

How the results depend on the processing

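The number of domains, 1203, was 296 at a limit of 10% per tile, 739 at 15%, 438 with at least 5 tiles and 387 with tiles listed in all 18 bulls. It was within 1.5 times of 1203 at 25%, with tiles shifted by 1000 bp, when chosen in H01 to H09, and with 1 bull left out (1144 to 1210).

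The trait differences of the domain mean kept their direction under the other definitions and at positions listed in every bull of a comparison, except for GL at a limit of 10% per tile (-0.247 points). Their size moved: SCR was -0.226 and CCR -1.01 at 10% per tile. SCE was -1.47 with tiles listed in all 18 bulls and -1.36 at the shared positions, and GL was 0.185 with tiles listed in all 18 bulls. With 3 bulls against 3 no setting could pass 0.05 in the exact permutation test, so its p says nothing of stability for SCE, BDE, CCR and SCR. With 1 bull left out the difference was -0.114 to 0.790 for GL, -1.39 to 0.0706 for SCE, -0.112 to 0.974 for BDE, -2.19 to -0.732 for CCR and -1.51 to -0.829 for SCR. The difference between file layouts was 0.238 to 0.693, and that in positions per tile 25.7 to 26.9, with 1 bull left out, chosen after seeing the data.

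For GL, SCE, BDE, CCR and SCR the called domain tiles numbered 29, 33, 56, 63 and 39 at a difference over 10 points, 21, 27, 42, 100 and 49 when the difference had to hold at positions listed in both groups (chosen after seeing the data), and 0 each with the F test and with limma. SCE had 132 with 13 reads per position and SCR 75 with at least 3 positions per tile and bull. The cause was not tested. With 1 bull left out the counts were 112 to 160, 76 to 150, 98 to 155, 131 to 309 and 130 to 206. SCE rose from 85 to 149 without H01, 131 without H07 and 150 without L09, CCR fell from 206 to 131 without L06, and SCR rose from 121 to 206 without H01. A tile was tested only with a position in each bull of the comparison, so the tested tiles changed with the bull left out. H01 listed 72.6% of the domain tiles and L09 83.0%. Apart from the F test and limma, these counts are given without the share of all tested tiles at the same setting, so they name no bull and no trait.

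No paired analysis was possible because the labels give no replicate numbers that pair bulls across groups. Few listed positions limit the values of short thin domains, dense and sparse, where single bulls list as few as 1 position, and depth is unknown for 12 bulls.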
